A study of Mus musculus with 4 samples.

Results

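The genes described here are 5 that restrain T cells or inflammatory signalling: Cd274, Pdcd1lg2, Ido1, Lgals9 and Socs1. They were taken by symbol from the 23284 gene symbols listed for each library, and all 5 were found. Cd274 and Pdcd1lg2 encode PD-L1 and PD-L2, the ligands of PD-1, an inhibitory receptor of T cells. Ido1 encodes an enzyme that degrades tryptophan, Lgals9 encodes galectin-9, a sugar-binding protein known as a ligand of TIM-3, and Socs1 encodes an inhibitor of JAK kinases.

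The RNA came from stromal cells of the whole large intestine of mice, sorted by flow cytometry for podoplanin and against CD45, CD31 and EpCAM, with dead cells removed by 7AAD. The 4 libraries are an IL-10 KO on C57BL/6J, a C57BL/6J wild type, a Rag2 KO on BALB/c and a BALB/c wild type, each on its own strain background, with no treatment named in the labels. IL-10 is an anti-inflammatory cytokine whose loss in mice leads to colitis, and Rag2 is needed to assemble the antigen receptors of T and B cells. The age and sex of the mice, the number of animals per library, the knockout alleles and the housing are not given in the labels. Each group has 1 library, so no test between groups can be made and every comparison below describes these libraries.

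In background terms, engagement of PD-1 by either of its ligands dampens signalling from the T cell receptor. Interferon-gamma acts through JAK kinases, which leads to expression of the transcription factor IRF1 and through it many target genes, among which Cd274 and Ido1 are classic examples. Socs1 is induced by the same signal and closes the loop by blocking JAK activity. In the gut, fibroblasts are known to be able to display PD-1 ligands to neighbouring T cells.

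Several readings of the libraries stood apart from their labels and bear on all that follows. Il10 had 129.9 FPKM (fragments divided by transcript length and by the mapped fragments of the library) in the library labelled IL-10 KO, against 3.33 FPKM in the C57BL/6J wild type. Rag2 had 0.712 FPKM in the library labelled Rag2 KO and was listed at 0 in the BALB/c wild type. Values for whole genes cannot show a deleted part, so neither gene checks its label. Transcripts of the sex chromosomes differed within C57BL/6J. Xist had 44.9 FPKM in the library labelled IL-10 KO against 23.02 FPKM in the wild type, and Ddx3y had 0.0269 FPKM in the library labelled IL-10 KO against 16.9 FPKM in the wild type. The C57BL/6J wild type thus held both transcripts. In BALB/c, Xist had 0.105 FPKM in the library labelled Rag2 KO and 0.0509 FPKM in the wild type, and Ddx3y had 31.5 FPKM in the library labelled Rag2 KO and 36.3 FPKM in the wild type. In the IL-10 comparison, genotype and sex cannot be told apart. Gapdh and Ppia, which cells in general use, had at most 0.433 FPKM in any library, so a gene at 0 in these values is described as listed at 0. The estimated depth was between 8325000 and 9887000 fragments per library.

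Stretches of DNA before the start sites of 3 of the genes are shown because these genes are known targets of interferon. Each of these genes had a higher FPKM in both libraries labelled as knockouts than in the wild type of its strain. For Lgals9 in the IL-10 comparison the FPKM ratio was only 1.23, and 72.3% of the genes compared had a lower difference. The stretches are RefSeq promoter sequences of GRCm38.p6, read 5′ to 3′ on the strand of the gene. Capitals mark matches to GAAANNGAAA, the core of the interferon-stimulated response element, on either strand. Socs1 is at chr16:10785537-10785786, minus strand, Lgals9 at chr11:78984925-78985174, minus strand, and Cd274 at chr19:29367309-29367437, plus strand, the last beginning after the annotated untranslated region of the neighbouring Plgrkt, whose longest noncoding transcript reaches into it.
Socs1: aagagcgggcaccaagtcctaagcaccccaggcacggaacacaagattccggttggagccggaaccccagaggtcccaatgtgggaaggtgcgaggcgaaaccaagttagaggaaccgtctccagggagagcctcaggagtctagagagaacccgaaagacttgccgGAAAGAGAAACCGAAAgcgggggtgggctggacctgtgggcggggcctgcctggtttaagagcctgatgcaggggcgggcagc
Lgals9: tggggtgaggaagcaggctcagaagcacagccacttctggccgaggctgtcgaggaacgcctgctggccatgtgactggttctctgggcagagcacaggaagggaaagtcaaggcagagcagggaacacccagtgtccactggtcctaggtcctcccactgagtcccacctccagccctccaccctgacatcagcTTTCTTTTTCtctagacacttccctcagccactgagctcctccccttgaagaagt
Cd274: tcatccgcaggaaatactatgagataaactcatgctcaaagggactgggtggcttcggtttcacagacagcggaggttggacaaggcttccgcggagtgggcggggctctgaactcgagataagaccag
The window of 250 bases before and 50 bases after the RefSeq start was searched for 4 of the 5 genes (Cd274, Pdcd1lg2, Lgals9 and Socs1). Socs1 held 2 overlapping matches, at bases -83 to -74 and -77 to -68 counted from its start. Lgals9 held 1 match at bases -55 to -46 and 1 at bases 16 to 25 after the start. Cd274 and Pdcd1lg2 held 0 matches in that window. Among 32851 promoters of the same length, 3.44% held this core. The gamma-activated sequence TTCNNNGAA, a motif of interferon-gamma target genes, was found in 0 of the 4 windows and in 8.30% of all promoters. A match of letters describes the sequence and is not a measured site.

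The levels of the 5 genes spanned a wide range and kept nearly one order in all 4 libraries. On the FPKM scale, which is corrected for transcript length, Lgals9 was highest in each library, followed by Socs1 and then Cd274, and their 95% counting intervals did not overlap within any library. Ido1 and Pdcd1lg2 were lowest. Ido1 was above Pdcd1lg2 in the libraries labelled IL-10 KO and Rag2 KO without overlap of the intervals, and the intervals of these genes overlapped in both wild types. The counting intervals rest on fragment numbers estimated from the FPKM, and they cover counting error only, not the spread between animals.

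**Figure D1:**
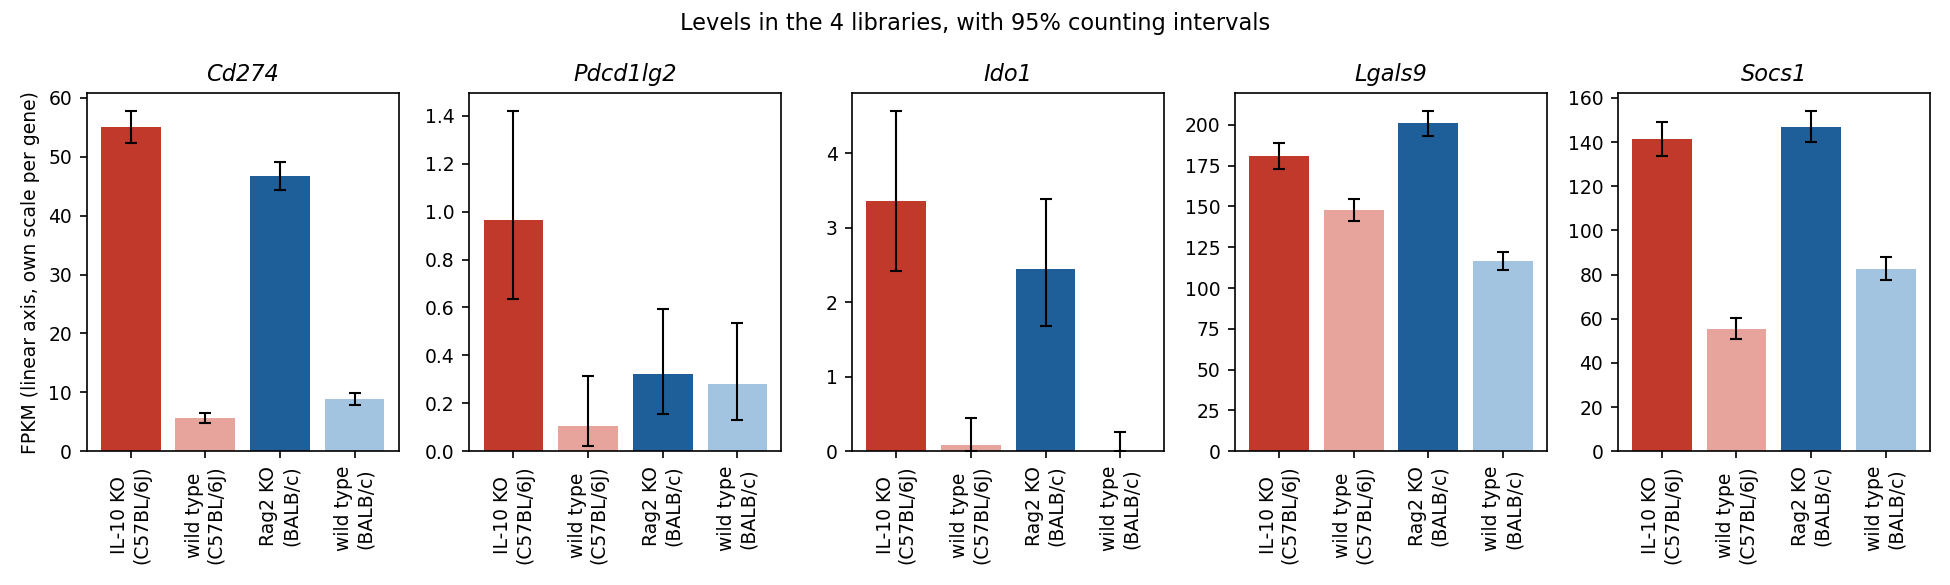
FPKM of each gene (linear axis, own scale per gene) in the 4 libraries, 1 bar per library, with 95% counting intervals as error lines. Cd274 and Socs1 are higher in both libraries labelled as knockouts than in either wild type, at 46.7 FPKM or more against 8.85 FPKM or less for Cd274.

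Cd274, on chromosome 19 (29367455 to 29388095, plus strand, mm10), showed the widest separation of the 3 genes that exceeded 1 FPKM in every library. It had 55.1 FPKM in the library labelled IL-10 KO against 5.60 FPKM in the wild type of its strain, while the library labelled Rag2 KO had 46.7 FPKM against 8.85 FPKM in the BALB/c wild type. These values stand for about 1570 fragments in the library labelled IL-10 KO and 166 in its wild type, and 1537 in the one labelled Rag2 KO and 300 in its wild type. Both libraries labelled as knockouts were thus high and both wild types low, and the counting intervals of the 4 values did not overlap. The FPKM ratio was 9.84 for IL-10 (counting interval 8.39 to 11.6) and 5.28 for Rag2 (4.65 to 5.98). The differences in log2(FPKM + 1) were 3.09 and 2.28. These placed Cd274 at rank 150 from the top of 12790 genes compared for IL-10 and at rank 107 of 12336 for Rag2. In the libraries labelled as knockouts Cd274 exceeded 94.7% and 93.7% of all rows in level, against 65.0% in the C57BL/6J and 72.5% in the BALB/c wild type. In these bulk samples, more cells of a type and more RNA per cell cannot be told apart.

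Pdcd1lg2, on the same strand of chromosome 19 (29410919 to 29471161), begins 22823 bases beyond the end of Cd274 and was near the lower limit of detection. It had 0.965 FPKM in the library labelled IL-10 KO against 0.107 FPKM in its wild type, while the library labelled Rag2 KO had 0.321 FPKM against 0.281 FPKM in its wild type. The values correspond to about 26 and 3 fragments in the library labelled IL-10 KO and its wild type, and to 10 and 9 in the one labelled Rag2 KO and its wild type, so the IL-10 KO label carried the one clearly higher value. The FPKM ratio was 9.02 in the IL-10 comparison, with a wide counting interval of 2.77 to 46.6. For Rag2 the ratio was 1.14, with an interval from 0.417 to 3.18, so a difference in either direction was not detectable at this depth. Because Pdcd1lg2 stayed under 1 FPKM in every library, it did not pass the filter on low values and is not counted among the genes compared. A noncoding gene on the opposite strand, A930007I19Rik, overlaps it and had at most 0.113 FPKM. A further antisense gene, AC119228.1, overlaps Cd274 and was not analysed here. The strand setting of the authors' counting is not given in the sources used here, so reads of such partners cannot be told apart.

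Ido1, on chromosome 8 (24584136 to 24597009, minus strand), was measured almost entirely in the libraries labelled as knockouts. It had 3.36 FPKM in the library labelled IL-10 KO against 0.0849 FPKM in the wild type of its strain. The library labelled Rag2 KO had 2.45 FPKM, and Ido1 was listed at 0 in the BALB/c wild type. About 41 and 34 fragments stood behind the values of the libraries labelled as knockouts, against 1 fragment in the C57BL/6J wild type. The FPKM ratio for IL-10 was 39.6, with a counting interval of 7.24 to 1727. No ratio is given for Rag2, since the wild type is listed at 0, where 3 fragments would have given 0.208 FPKM. The differences in log2(FPKM + 1) were 2.01 and 1.79. Ido1 passed the filter only through the libraries in which it was high.

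Lgals9, on chromosome 11 (78962974 to 78984946, minus strand), was the most abundant of the 5 and varied the least in proportion. It had 181 FPKM in the library labelled IL-10 KO against 148 FPKM in the wild type of its strain, while the library labelled Rag2 KO had 201 FPKM against 116 FPKM in the BALB/c wild type. In each library Lgals9 exceeded at least 97.9% of all rows, and the counting intervals of the 4 values did not overlap. The FPKM ratio was 1.23 for IL-10 (1.15 to 1.31) and 1.73 for Rag2 (1.62 to 1.84). Of the genes compared, 72.3% had a lower log2 difference than Lgals9 for IL-10, and 93.5% for Rag2.

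Socs1, on chromosome 16 (10782240 to 10785536, minus strand), was the second most abundant. It had 141 FPKM in the library labelled IL-10 KO against 55.3 FPKM in the wild type of its strain, while the library labelled Rag2 KO had 147 FPKM against 82.5 FPKM in the BALB/c wild type. The values of the libraries labelled as knockouts overlapped in their counting intervals, and both lay above the wild types, which differed from each other. The FPKM ratio was 2.55 for IL-10 (2.31 to 2.82) and 1.78 for Rag2 (1.64 to 1.93). On the log2(FPKM + 1) scale these were differences of 1.34 and 0.83, so Socs1 passed a 2-fold difference in the IL-10 comparison alone. Whether its difference is larger in one comparison than in the other was not tested.

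A 2-fold difference in log2(FPKM + 1), among genes with at least 1 FPKM in either library, was used to count genes. In the IL-10 comparison 3 of the 4 genes compared (Cd274, Ido1 and Socs1) were past that line upward and 0 downward, and their median log2 difference was 1.67. Over all 12790 genes compared, 10.1% passed the 2-fold line upward and 3.82% downward. For Rag2, Cd274 and Ido1 made up the 2 of 4 past the line upward, 0 passed it downward and the median was 1.31. Over all 12336 genes, 4.42% passed upward and 2.03% downward. Rescaling the libraries to an equal FPKM sum without small RNAs changed the split over all genes for Rag2 to 459 higher and 339 lower, against 545 and 251 as deposited, while 2 genes of the 5 still passed. The log2 difference of the median gene was within 0.01 of 0 in both comparisons as deposited and moved to -0.13 in both under that scaling. The choice of the 2-fold line mattered for Rag2: Lgals9 and Socs1, at 0.78 and 0.83, lay just under it.

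**Figure D2:**
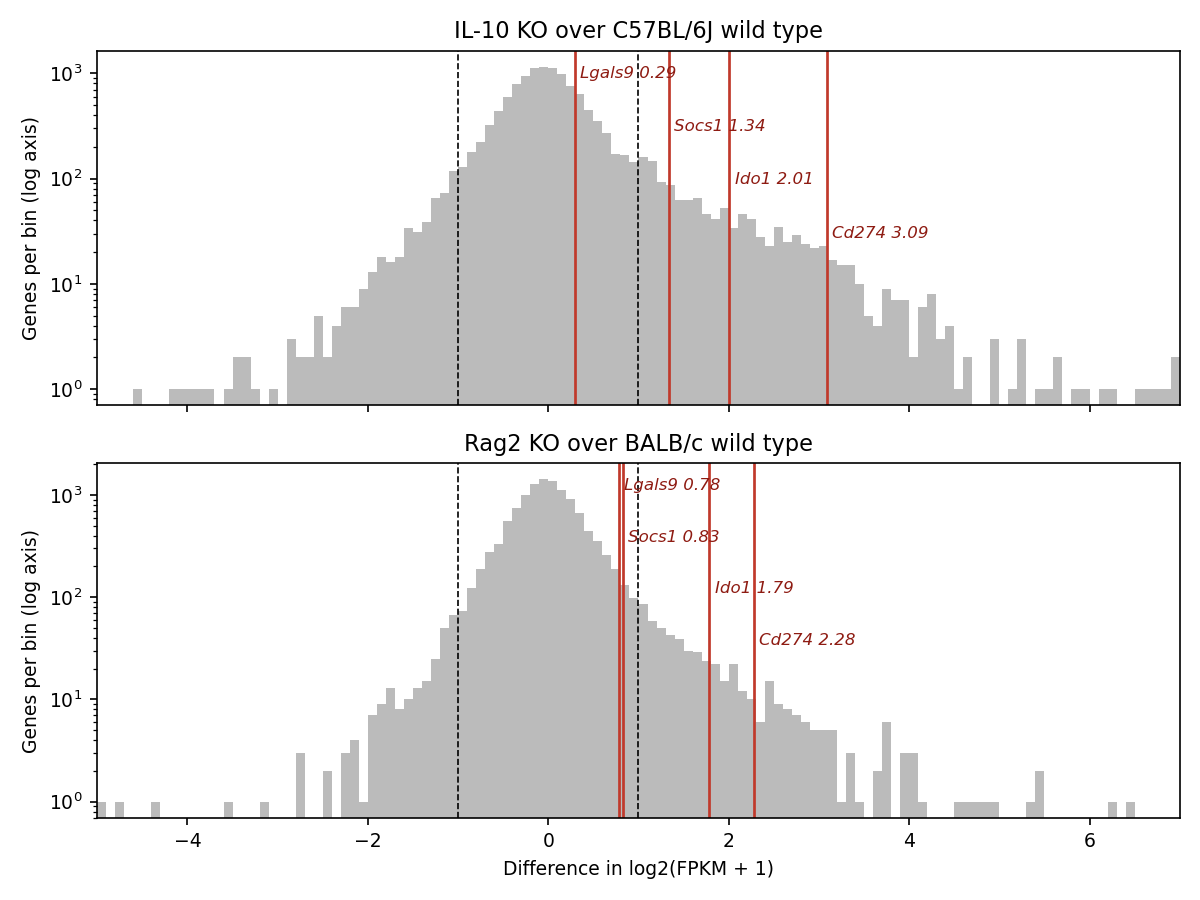
Number of genes per bin (log axis) against the difference in log2(FPKM + 1) for the library labelled IL-10 KO minus C57BL/6J wild type (top) and the library labelled Rag2 KO minus BALB/c wild type (bottom), with solid lines at the genes described and dashed lines at 2-fold. Cd274 lies farthest to the right of the 4 genes in both panels, at 3.09 and 2.28; 22 and 26 genes lie outside the axis.

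The knockout comparisons share no library, and each gene's difference was set against the other. The log2 difference for IL-10 exceeded that for Rag2 by 0.81 for Cd274, by 0.51 for Socs1 and by 0.22 for Ido1. For Lgals9 the difference between the comparisons was -0.49, with the larger value in the Rag2 comparison. Over all 13078 genes set side by side, the interquartile range of such differences was -0.29 to 0.31 and the middle 95% ran from -1.01 to 1.91. All 4 genes therefore lay within the middle 95% of genes, and Cd274, Socs1 and Lgals9 lay outside the interquartile range. The value for Ido1 rests on a wild type at or near 0 and turned to -0.45 with a pseudocount of 0.1 in place of 1. The comparisons also differ in strain and in their transcripts of the sex chromosomes.

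Between the wild types, the log2 differences of Cd274 and Socs1 were smaller than in either knockout comparison, at 0.58 and 0.57, while that of Lgals9, at -0.34, was larger in size than its 0.29 for IL-10. Cd274 had 8.85 FPKM in BALB/c and 5.60 FPKM in C57BL/6J, a ratio of 1.58 with a counting interval of 1.31 to 1.93. Socs1 had 82.5 FPKM in BALB/c and 55.3 FPKM in C57BL/6J, a ratio of 1.49 (1.34 to 1.66). Lgals9 ran the other way, with 116 FPKM in BALB/c and 148 FPKM in C57BL/6J, a ratio of 0.789 (0.736 to 0.844). Of the 3 genes compared, 0 were 2-fold apart, against 1.81% of 12290 genes higher and 2.17% lower in BALB/c. This comparison shares a library with each knockout comparison. Xist and Ddx3y also differed between the wild types, so strain and sex cannot be told apart in it.

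Markers of other cells also differed, in directions that varied with the cell type and the comparison. Summed over 8 general leukocyte genes, the level was 679 FPKM in the library labelled IL-10 KO against 74.2 FPKM in the C57BL/6J wild type, with 8 of 8 at least 2-fold higher. The sums were 182 FPKM in the library labelled Rag2 KO and 128 FPKM in the BALB/c wild type, with 0 of 8 at least 2-fold higher. Of all genes compared, 10.1% were at least 2-fold higher for IL-10 and 4.42% for Rag2. Ptprc, which encodes the CD45 used to exclude leukocytes, had 43.1 FPKM in the library labelled IL-10 KO and 3.34 FPKM in its wild type, and 11.5 FPKM in the one labelled Rag2 KO and 8.31 FPKM in its wild type. Its FPKM ratios were 12.9 and 1.39, beside 9.84 and 5.28 for Cd274. Per FPKM of Ptprc, Cd274 therefore stood at 1.28 in the library labelled IL-10 KO and 1.68 in its wild type, and at 4.05 in the library labelled Rag2 KO and 1.07 in its wild type. Macrophage and monocyte genes were higher in 13 of 14 cases for IL-10 (summed to 1610 FPKM in the KO and 208 FPKM in the wild type) and in 6 of 14 for Rag2 (795 FPKM in the KO and 370 FPKM in the wild type). Neutrophil genes were higher in 7 of 7 compared for IL-10 (3837 FPKM in the KO and 9.62 FPKM in the wild type) and in 5 of 5 for Rag2 (242 FPKM in the KO and 23.6 FPKM in the wild type). Of those higher, 5 of 7 and 2 of 5 were under 1 FPKM in the wild type and passed the filter only through the library where they were high. The same held for 2 of the 13 macrophage and monocyte genes higher for IL-10. Of the 8 neutrophil markers, 3 were listed at 0 in the C57BL/6J wild type, 1 in the library labelled Rag2 KO and 2 in the BALB/c wild type.

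Dendritic cell genes, from cells known to carry both PD-1 ligands and Ido1, were higher in 7 of 11 compared for IL-10 and in 2 of 7 for Rag2. Their sums were 328 FPKM in the library labelled IL-10 KO and 151 FPKM in its wild type, and 390 FPKM in the one labelled Rag2 KO and 146 FPKM in its wild type. Beside these and the counts below, 10.1% of all genes compared were at least 2-fold higher and 3.82% lower for IL-10. For Rag2 the shares were 4.42% and 2.03%. Bst2, an interferon target expressed by many cell types, took 310 FPKM of the sum in the library labelled Rag2 KO and 72.0 FPKM in its wild type, and the other 11 markers summed to 80.2 FPKM in the KO and 74.2 FPKM in the wild type. T cell and innate lymphoid genes were higher in 10 of 12 for IL-10 (192 FPKM in the KO and 66.2 FPKM in the wild type), and for Rag2 0 of 9 were higher and 3 lower (111 FPKM in the KO and 80.6 FPKM in the wild type). Much of these sums was Thy1, which fibroblasts also express. The other 11 markers summed to 103 FPKM in the library labelled IL-10 KO and 7.76 FPKM in its wild type, and to 8.15 FPKM in the one labelled Rag2 KO and 18.9 FPKM in its wild type. Of all 12 markers, 2 were listed at 0 in the library labelled Rag2 KO. B cell and plasma cell genes were higher in 6 of 7 for IL-10 (485 FPKM in the KO and 248 FPKM in the wild type). For Rag2, 6 of 7 were lower (3.06 FPKM in the KO and 462 FPKM in the wild type). Igj alone took 395 FPKM of the sum in the library labelled IL-10 KO and 237 FPKM in its wild type. It took 1.36 FPKM in the library labelled Rag2 KO and 428 FPKM in its wild type. The other 6 markers summed to 90.03 FPKM in the library labelled IL-10 KO and 11.6 FPKM in its wild type. For Rag2 these 6 summed to 1.69 FPKM in the KO and 34.5 FPKM in the wild type. Epithelial genes were at least 2-fold higher in 12 of 12 in both comparisons. They summed to 407 FPKM in the library labelled IL-10 KO and 107 FPKM in its wild type, and to 171 FPKM in the one labelled Rag2 KO and 41.1 FPKM in its wild type. Some genes counted as higher were under 1 FPKM in the wild type and passed the filter only through the library where they were high. For IL-10 these were 3 of 7 dendritic cell, 7 of 10 T cell and innate lymphoid, and 2 of 6 B cell and plasma cell genes. For Rag2 these were 3 of 12 epithelial genes. The epithelium is also known to express Lgals9, and the part of these cell types in the differences of the 5 genes was not tested.

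Genes of fibroblasts, which the sort was set to keep, differed little. Pdpn, the gene of podoplanin, had 204 FPKM in the library labelled IL-10 KO against 158 FPKM in the wild type of its strain, while the library labelled Rag2 KO had 293 FPKM against 190 FPKM in the BALB/c wild type. Fibroblast markers summed to 14005 FPKM in the library labelled IL-10 KO against 14257 FPKM in the C57BL/6J wild type, and to 12426 FPKM in the library labelled Rag2 KO against 12937 FPKM in the BALB/c wild type. None of the 10 was listed at 0 in any library, and 0 of 10 were 2-fold higher in either comparison, while 1 was 2-fold lower for IL-10. Per FPKM of Pdgfra, a receptor of fibroblasts, Cd274 stood at 0.541 in the library labelled IL-10 KO against 0.0400 in its wild type, and at 0.389 in the library labelled Rag2 KO against 0.0594 in its wild type. The same quotient for Socs1 was 1.39 in the library labelled IL-10 KO and 0.395 in its wild type, and 1.23 in the one labelled Rag2 KO and 0.553 in its wild type. For Lgals9 it was 1.77 in the library labelled IL-10 KO and 1.06 in its wild type, and 1.68 in the one labelled Rag2 KO and 0.780 in its wild type. Per FPKM of Pdpn, which was itself higher in both libraries labelled as knockouts, Lgals9 stood at 0.886 in the library labelled IL-10 KO and 0.934 in its wild type, and at 0.687 in the one labelled Rag2 KO and 0.614 in its wild type. The direction for Lgals9 for IL-10 thus depended on the gene it was divided by. Cd274 per FPKM of Pdpn stood at 0.270 in the library labelled IL-10 KO and 0.0354 in its wild type, and at 0.160 in the one labelled Rag2 KO and 0.0467 in its wild type. Smooth muscle genes were at least 2-fold lower in 6 of 8 for IL-10 (290 FPKM in the KO and 667 FPKM in the wild type) and in 4 of 8 for Rag2 (365 FPKM in the KO and 710 FPKM in the wild type). Of all genes compared, 10.1% were higher and 3.82% lower for IL-10, and 4.42% and 2.03% for Rag2. Endothelial genes summed to 92.3 FPKM in the library labelled IL-10 KO and 95.8 FPKM in its wild type. For Rag2 the sums were 89.9 FPKM in the KO and 127 FPKM in the wild type. Without Ccl21a, the other 7 summed to 58.1 FPKM in the library labelled IL-10 KO and 49.02 FPKM in its wild type. For Rag2 these 7 summed to 43.3 FPKM in the KO and 46.2 FPKM in the wild type.

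**Figure D3:**
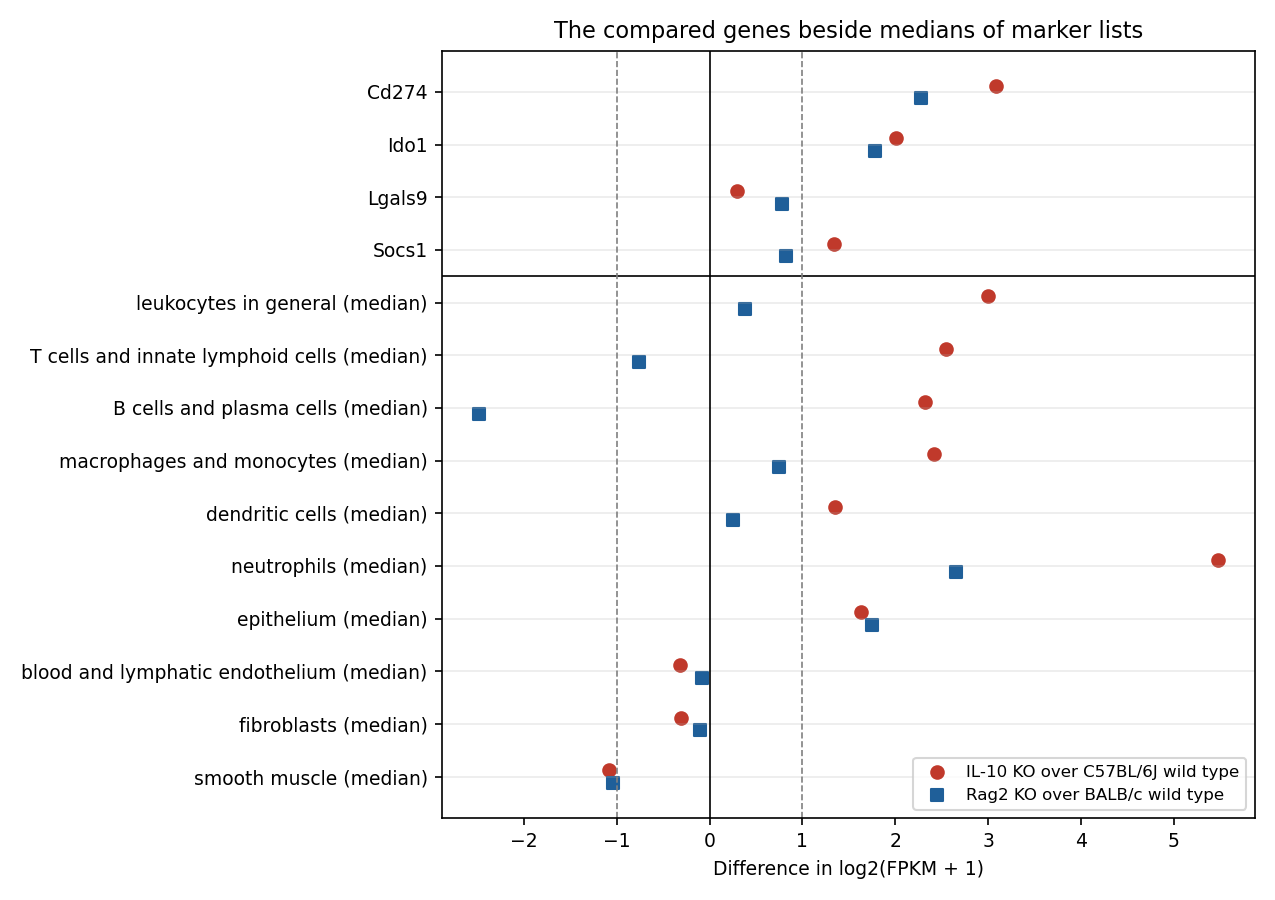
Difference in log2(FPKM + 1) of the 4 genes compared (above the line) and the median over each list of cell type markers (below the line), for the IL-10 comparison (circles) and the Rag2 comparison (squares). Cd274, at 3.09 and 2.28, sits beside medians of general leukocyte genes of 2.996 and 0.38 and of fibroblast genes of -0.30 and -0.10.

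Cd274 was set beside a list of 25 immune checkpoint ligands, proteins that meet receptors on T cells or myeloid cells. Of 18 compared for IL-10, 6 were past 2-fold upward and 2 downward, against 10.1% and 3.82% of all genes, and the median was 0.66. Of 17 compared for Rag2, 4 were higher and 0 lower, against 4.42% and 2.03% of all genes, with a median of 0.48. Cd274 had the highest log2 difference of the list in both comparisons. Cd80, whose product binds CD28, CTLA-4 and PD-L1 itself, had 13.2 FPKM in the library labelled IL-10 KO against 1.303 FPKM in its wild type, while the library labelled Rag2 KO had 5.46 FPKM against 1.95 FPKM in its wild type. Cd86, the other ligand of CD28, differed by 2.65 for IL-10 and 0.69 for Rag2 on the log2 scale. Ceacam1, an adhesion molecule that also marks epithelium, differed by 2.27 and 1.44. H2-T23, a nonclassical class I gene with close paralogs whose reads may be split among them, had 288 FPKM in the library labelled IL-10 KO and 123 FPKM in its wild type, and 473 FPKM in the one labelled Rag2 KO and 152 FPKM in its wild type.

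Tnfsf9 and Icosl were the 2 ligands at least 2-fold lower for IL-10. Tnfsf9, which encodes the 4-1BB ligand, had 54.3 FPKM in the library labelled IL-10 KO against 180.2 FPKM in its wild type, while the library labelled Rag2 KO had 98.6 FPKM against 190.8 FPKM in its wild type. Its log2 differences were -1.71 and -0.95. Icosl, the ligand of ICOS, had 29.5 FPKM in the library labelled IL-10 KO against 67.5 FPKM in its wild type, and 53.2 FPKM in the one labelled Rag2 KO against 47.6 FPKM in its wild type. Both were chosen after their values were seen. Under scaling to an equal FPKM sum, 1 ligand was also at least 2-fold lower for Rag2, against 0 as deposited.

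The receptors of these ligands, most of them on T cells, differed between the comparisons. For IL-10, 10 of 13 compared were past 2-fold upward and 0 downward, and the median was 1.87, with 10.1% of all genes past it upward. Of these 10, 4 were under 1 FPKM in the wild type and passed the filter only through the library where they were high. With a pseudocount of 5 the count of 10 became 6. Of 11 compared for Rag2, 1 was higher and 2 lower, with a median of -0.46, against 4.42% and 2.03% of all genes. The 2 lower ones became 4 with a pseudocount of 0.1 and 0 with a pseudocount of 5. Pdcd1, the gene of PD-1, had 6.71 FPKM in the library labelled IL-10 KO against 1.20 FPKM in its wild type, while the library labelled Rag2 KO had 1.74 FPKM against 1.46 FPKM in its wild type. So Cd274 was more than 5-fold apart in the Rag2 comparison, where the gene of its receptor differed by 0.16 on the log2 scale. Ctla4 had 51.1 FPKM in the library labelled IL-10 KO and 2.39 FPKM in its wild type, and 0.538 FPKM in the one labelled Rag2 KO and 3.37 FPKM in its wild type. Havcr2, the gene of TIM-3, had 7.19 FPKM in the library labelled IL-10 KO and 0.4998 FPKM in its wild type, and 2.91 FPKM in the one labelled Rag2 KO and 0.797 FPKM in its wild type. Rgmb, whose product binds PD-L2, was lower in both, by log2 differences of -0.41 and -0.46.

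**Figure D4:**
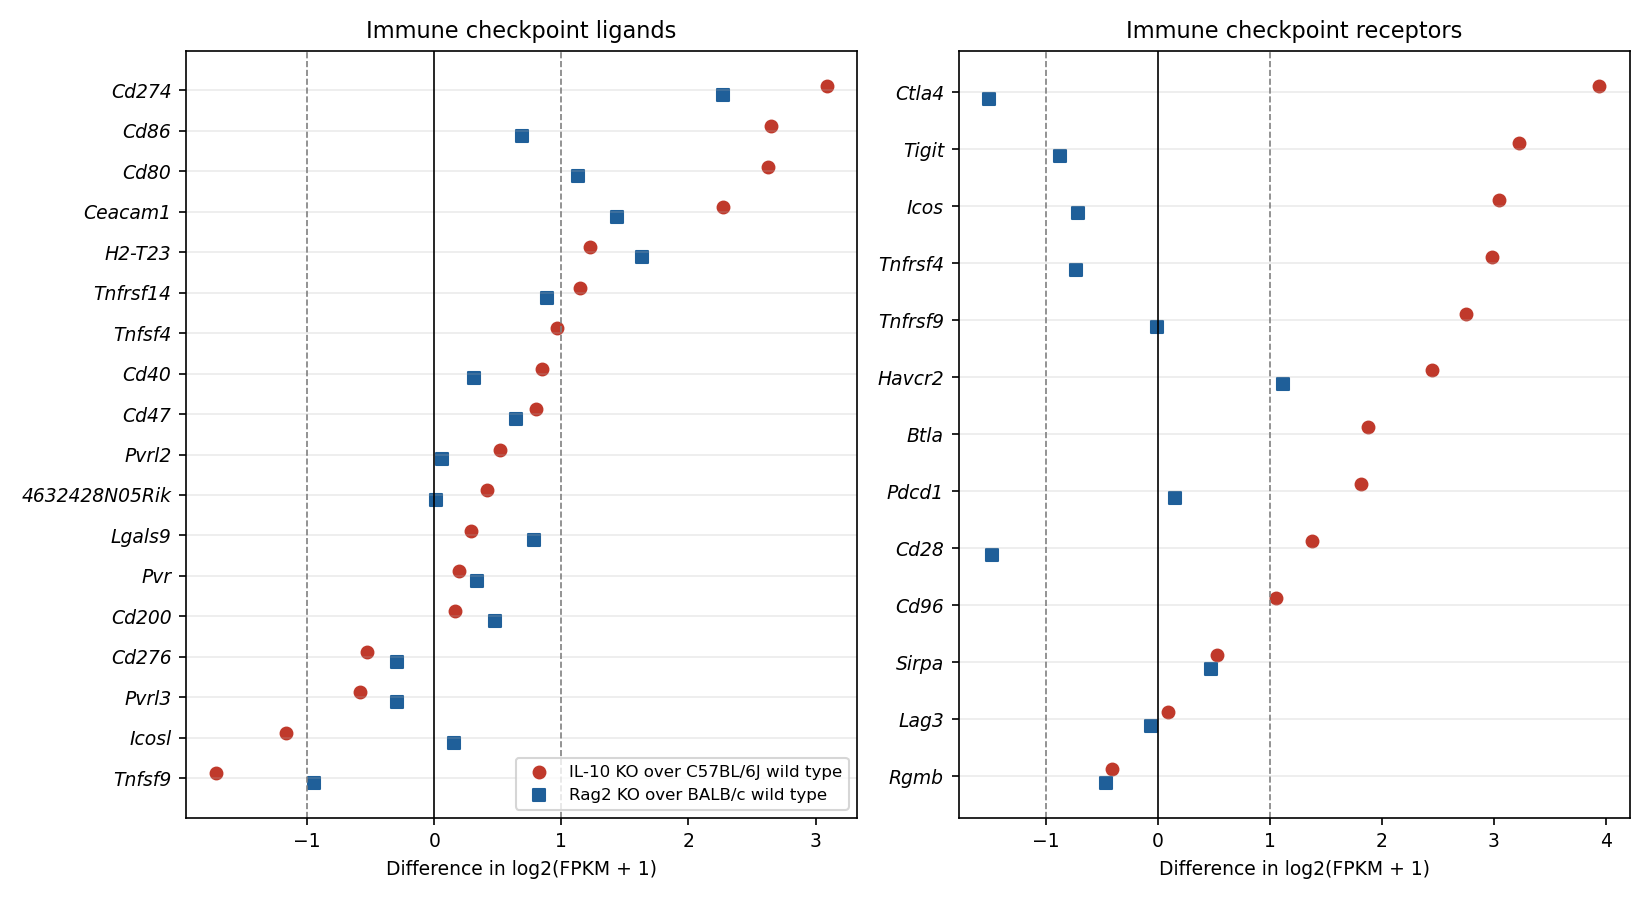
Difference in log2(FPKM + 1) of immune checkpoint ligands (left) and receptors (right) compared in at least 1 comparison, for IL-10 (circles) and Rag2 (squares), with dashed lines at 2-fold. Cd274 is at the top of the ligands in both; Ctla4 lies at 3.94 for IL-10 and at -1.51 for Rag2.

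Ido1 belongs to the breakdown of tryptophan into kynurenines, which can act on T cells and on the aryl hydrocarbon receptor. For IL-10, 6 of 14 genes compared from that list were past 2-fold upward and 0 downward, with 10.1% of all genes past it upward, and the median was 0.53. Of 11 compared for Rag2, 3 were higher and 0 lower, with 4.42% of all genes higher, and the median was 0.10. Of the genes higher, 4 of 6 and 2 of 3 passed the filter only through the library where they were high, which bears on both counts. With a pseudocount of 5, the counts of genes higher were 2 for IL-10 and 1 for Rag2. Ido2, the paralog of Ido1, was listed at 0 or had at most 0.0367 FPKM in every library, and Tdo2, the other enzyme of the first step, had at most 0.492 FPKM; both were chosen after their values were seen. Il4i1, an amino acid oxidase, had 3.86 FPKM in the library labelled IL-10 KO and was listed at 0 in its wild type, and had 0.141 FPKM in the library labelled Rag2 KO. Wars, the tryptophan tRNA synthetase and another known interferon target, had 34.2 FPKM in the library labelled IL-10 KO and 12.7 FPKM in its wild type, and 51.0 FPKM in the one labelled Rag2 KO and 12.8 FPKM in its wild type. Cyp1b1, a target of the aryl hydrocarbon receptor, had 12.97 FPKM in the library labelled IL-10 KO and 1.301 FPKM in its wild type, and 1.89 FPKM in the one labelled Rag2 KO and 0.428 FPKM in its wild type. Ahr, the receptor itself, differed by 0.02 and -0.45.

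Lgals9 is 1 of 10 galectin genes or partners found. Of 8 compared, 3 were at least 2-fold higher for IL-10 and 2 for Rag2, 0 were lower, and the medians were 0.54 and 0.60, with 10.1% and 4.42% of all genes higher. Lgals3bp, the gene of a galectin-binding protein, had 259 FPKM in the library labelled IL-10 KO and 125 FPKM in its wild type, and 304 FPKM in the one labelled Rag2 KO and 95.6 FPKM in its wild type. Lgals4, an epithelial galectin, had 75.2 FPKM in the library labelled IL-10 KO and 23.4 FPKM in its wild type, and 32.3 FPKM in the one labelled Rag2 KO and 15.3 FPKM in its wild type, and it shares near-identical sequence with Lgals6, so its value is uncertain. Lgals1, the most abundant galectin, had 728 FPKM in the library labelled IL-10 KO and 996 FPKM in its wild type, and 929 FPKM in the one labelled Rag2 KO and 569 FPKM in its wild type. Lgals9 was higher in both comparisons, but its log2 difference of 0.29 for IL-10 lay within the interquartile range of all genes compared. Lgals3, Lgals4, Lgals6 and Lgals3bp were also higher in both, whereas Lgals1 was lower for IL-10 and higher for Rag2.

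Socs1 was set beside 18 inhibitors of JAK-STAT signalling, all of them compared. For IL-10, 2 were at least 2-fold higher (Ptpn6 and Socs1), 0 were lower and the median was -0.12. For Rag2, 1 was higher (Usp18), 0 were lower and the median was -0.02. These shares are near the 10.1% and 4.42% of all genes that were higher, so the counts set the list apart in neither comparison. The gene of the related inhibitor SOCS3 was far more abundant than Socs1 and ran the other way, with 703 FPKM in the library labelled IL-10 KO and 1138 FPKM in its wild type, and 898 FPKM in the one labelled Rag2 KO and 1035 FPKM in its wild type. Cish had 49.9 FPKM in the library labelled IL-10 KO and 62.3 FPKM in its wild type, and 53.7 FPKM in the one labelled Rag2 KO and 100.8 FPKM in its wild type. Ptpn6, a phosphatase of blood cells, had 15.1 FPKM in the library labelled IL-10 KO and 1.44 FPKM in its wild type, and 6.32 FPKM in the one labelled Rag2 KO and 3.32 FPKM in its wild type. Socs3 was chosen after its values were seen.

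The pathway that is known to induce Cd274, Ido1 and Socs1 was higher in parts. Of 18 genes of interferon signalling, 7 were at least 2-fold higher for IL-10 and 5 for Rag2, with 0 lower in either and medians of 0.72 and 0.38, against 10.1% and 4.42% of all genes higher. Ifng, the ligand, had 11.7 FPKM in the library labelled IL-10 KO against 0.114 FPKM in its wild type, while the library labelled Rag2 KO had 3.61 FPKM against 0.301 FPKM in its wild type. Nlrc5, the activator of class I genes, differed by 3.30 and 3.17. Irf1 was abundant in all libraries, with 903 FPKM in the library labelled IL-10 KO and 817 FPKM in its wild type, and 1053 FPKM in the one labelled Rag2 KO and 697 FPKM in its wild type. Jak2, the gene of a kinase that SOCS1 inhibits, had 35.2 FPKM in the library labelled IL-10 KO and 17.5 FPKM in its wild type, and 24.3 FPKM in the one labelled Rag2 KO and 19.2 FPKM in its wild type.

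For each of the 5, up to 3 genes with the most similar pattern over the 4 libraries are given from among 8799 genes, by the distance between log2(FPKM + 1) values centred on each gene's mean. Nearest to Cd274 were Ms4a6c (distance 0.236), Ccl3 (0.247) and Slc15a3 (0.290), of which Ccl3 encodes a chemokine. Nearest to Ido1 were H2-D1 (0.109), a class I gene with close paralogs, the acute-phase gene Saa1 (0.177) and Rai14 (0.231). Nearest to Socs1 were Lyz1 (0.143), a lysozyme gene with a close paralog, S100a4 (0.150) and the urokinase receptor gene Plaur (0.185). Nearest to Lgals9 were Ccdc124 (0.0449), Galnt2 (0.0624) and the calreticulin gene Calr (0.0685). Nearest to Pdcd1lg2, whose own values hold few fragments, were Rasip1 (0.0579) and Cyba (0.0999). Among the 5 themselves, Pdcd1lg2 and Lgals9 were closest at 0.651 and Cd274 and Pdcd1lg2 farthest apart at 2.27. These distances depend on the 1 FPKM added, which flattens a gene as low as Pdcd1lg2. Its FPKM ratio for IL-10 was 9.02, beside 9.84 for Cd274 and 1.23 for Lgals9. For Rag2 the ratios were 1.14, 5.28 and 1.73. With 4 libraries, such distances are a description of these values.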

How the data were processed

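Messenger RNA of sorted stromal cells was sequenced in 4 libraries, extracted with a miRNeasy kit and prepared with the TruSeq stranded mRNA kit, per the labels' protocols. The deposited values are FPKM computed by the authors, 1 per gene symbol. Bowtie2 2.2.8, Cuffdiff 2.2.1, SAMtools 0.1.18, TopHat2 2.1.1 and mm10 are named, without roles, per the submitters' processing notes. Annotation, strand setting and library normalization: not given in the sources used here. BALB/c reads that differ from a C57BL/6J-based build may align less often.

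Differences were taken in log2(FPKM + 1) among genes with at least 1 FPKM in either library, and 2-fold differences were counted. Fragments were estimated from the steps between low FPKM values, as whole multiples of 1 fragment. With 197.8 nt taken off each transcript's length, 165 of 265 genes lay within 5% of 1 line. The depths were about 8325000 (IL-10 KO), 8668000 (C57BL/6J wild type), 9613000 (Rag2 KO) and 9887000 (BALB/c wild type) fragments. Counting intervals are exact 95% intervals given the estimated fragments. The depth estimate and the finding of genes past 2-fold were tested on simulated data, and the intervals were not. Transcript lengths came from GENCODE M21, with the 3′ ends of the 5 genes set from RefSeq. This changed the lengths of Pdcd1lg2 and Socs1 most, those of Ido1 and Lgals9 slightly and that of Cd274 not at all. Other pseudocounts, scalings, filters and folds were tried.

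The 5 genes and all lists were chosen with earlier results of these data known. Named genes are the 5, a fixed set of partners, up to 4 members per list with the largest differences in each comparison, the first marker of each cell type, and genes said to be chosen after their values were seen. Of 136 list entries, 135 were found. Small RNA rows number 784. Python 3.11.15, numpy 2.4.6, pandas 2.3.3, scipy 1.17.1 and matplotlib 3.10.9 were used. Some items are not reported here.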

Additional observations from a re-analysis of the deposited data

Results flagged for a closer look

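Ctla4, the gene of an inhibitory receptor of T cells, was at least 2-fold higher in the library labelled IL-10 KO than in the C57BL/6J wild type and at least 2-fold lower in the library labelled Rag2 KO than in the BALB/c wild type. Its log2 difference for IL-10 exceeded that for Rag2 by 5.45. Cd28, the gene of the costimulatory receptor of CD80 and CD86, ran in the same opposite directions, with 5.27 FPKM in the library labelled IL-10 KO and 1.42 FPKM in its wild type, and 0.477 FPKM in the one labelled Rag2 KO and 3.12 FPKM in its wild type. Its log2 differences were 2.86 apart. With a pseudocount of 5, neither was 2-fold lower for Rag2. With 1 library per group, neither difference was tested. Summed T cell and innate lymphoid markers had 192 FPKM in the library labelled IL-10 KO, 66.2 FPKM in the C57BL/6J wild type, 111 FPKM in the library labelled Rag2 KO and 80.6 FPKM in the BALB/c wild type. Without Thy1, which fibroblasts also express, the sums were 103 FPKM in the library labelled IL-10 KO, 7.76 FPKM in the C57BL/6J wild type, 8.15 FPKM in the library labelled Rag2 KO and 18.9 FPKM in the BALB/c wild type, the same directions as Ctla4 and Cd28. Their part in these values was not tested.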

How the results depend on the processing

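In the Rag2 comparison the count of 2 genes at least 2-fold higher became 1 with a pseudocount of 5, 1 with a filter of 5 FPKM, 4 at a 1.5-fold line and 1 at a 4-fold line. The IL-10 count stayed between 2 and 3 and the strain count at 0 in the 8 alternatives of each. Of 60 recomputed differences of single genes, 47 stayed within the counting interval of the reported value, 13 did not and 0 changed sign. Those 13 include every recomputed value of Ido1 for Rag2 and between the wild types, where a library listed at 0 leaves no interval. The rest were Cd274 with a pseudocount of 5 in both knockout comparisons, and Lgals9 in both and Socs1 for Rag2 under equal-sum scaling. Cd274 ranged from 2.503 to 3.28 for IL-10 and from 1.90 to 2.39 for Rag2, and Ido1 from 0.72 to 4.23 and from 0.58 to 4.67, with its wild types near 0. Of 112 recomputed counts of the gene lists, an alternative added after seeing the data, 99 stayed within 1.5 times the reported count and 13 did not, 8 of them with a pseudocount of 5. Receptors lower for Rag2 numbered 4 with a pseudocount of 0.1 and 0 with a pseudocount of 5, and under equal-sum scaling 1 ligand and 1 inhibitor of JAK-STAT signalling were lower for Rag2, against 0 of each as deposited. Over all genes, a pseudocount of 5 gave 611 higher and 182 lower for IL-10, against 1297 and 488. It gave 278 and 68 for Rag2, against 545 and 251, and 56 and 104 between the wild types, against 223 and 267. A pseudocount of 0.1 gave 787 lower for IL-10, 532 lower for Rag2, and 477 higher and 452 lower between the wild types. No paired analysis was possible because each group has 1 library, and for the same reason no replicate could be left out. Depth limits Pdcd1lg2, with 3 to 26 fragments, and Ido1 in the wild types.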

Other observations

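Genes on either side of the PD-1 ligand genes on chromosome 19 were compared with Cd274. Upstream of Cd274, Plgrkt had 36.6 FPKM in the library labelled IL-10 KO against 23.8 FPKM in the wild type of its strain, while the library labelled Rag2 KO had 34.4 FPKM against 29.4 FPKM in the BALB/c wild type. Its log2 differences were 0.60 and 0.22, and those of Jak2, farther upstream, were 0.97 and 0.33. Beyond Pdcd1lg2, Ric1 differed by -0.03 and -0.08 and Ermp1 by 0.03 and 0.08. The differences of Cd274 were 3.09 and 2.28. These genes were chosen for their position.

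Of 27 other immunoregulatory genes, 26 were compared for IL-10, of which 12 were past 2-fold upward and 0 downward, against 10.1% of all genes upward, and the median was 0.75. For Rag2, 6 of 24 were higher and 0 lower, against 4.42% of all genes higher, with a median of 0.38. Among those higher, 3 of 12 and 1 of 6 were under 1 FPKM in the wild type. They passed the filter only through the library where they were high. Il1rn, the natural antagonist of the interleukin-1 receptor, had 113 FPKM in the library labelled IL-10 KO against 4.08 FPKM in its wild type, while the library labelled Rag2 KO had 48.7 FPKM against 8.61 FPKM in its wild type. Lif, a cytokine of the interleukin-6 family, had 29.2 FPKM in the library labelled IL-10 KO and 8.34 FPKM in its wild type, and 36.3 FPKM in the one labelled Rag2 KO and 5.27 FPKM in its wild type. Serpina3g, a serine protease inhibitor, had 264 FPKM in the library labelled IL-10 KO and 76.2 FPKM in its wild type, and 150.015 FPKM in the one labelled Rag2 KO and 22.6 FPKM in its wild type. Arg2, which breaks down arginine, differed by 3.24 and 1.33 on the log2 scale, and Nos2, which makes nitric oxide from it, by 3.01 and 1.85. In the C57BL/6J wild type Arg2 had 0.479 FPKM and Nos2 0.212 FPKM, and Nos2 had 0.239 FPKM in the BALB/c wild type.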
